A study of Homo sapiens with 6 samples.

Results

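The pore-forming alpha1 subunits of voltage-gated calcium channels are encoded by 10 CACNA1 genes, and the peaks of a MYT1L CUT&RUN series at these genes are described here. All 10 members were found by symbol among 20037 protein-coding genes of the RefSeq table for GRCh38.p14. A peak was assigned to a gene if it lay in the gene body or within 5 kb of either end. The family was chosen by name with earlier results of the same peak lists known, and a strong site inside CACNA1C was selected on its fold enrichment. The values that follow therefore describe the members, and no test was made on them.

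The series holds 6 libraries of H1, an established human embryonic stem cell line, at day 30. MYT1L antibody was used for 4 of them (replicates 1 to 4, numbered as in the sample titles, while the peak names inside these lists carry numbers 1 higher) and IgG, which has no chromatin target, for 2 (replicates 1 and 2). All are labelled WT. The design text calls the cells cortical interneurons derived from stem cells, whereas the label of each sample gives embryonic stem cells as the cell type. All material came from 1 cell line, and the labels do not say whether replicates were separate differentiations. Peak positions cannot show marker expression, so the cell type was not checked against markers. CUT&RUN releases DNA around an antibody-bound protein with a tethered nuclease, and each library had 1 deposited list of peaks.

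Each alpha1 subunit forms the calcium-conducting pore, senses voltage and sets the pharmacology of its channel. CACNA1C, CACNA1D, CACNA1S and CACNA1F encode L-type channels, CACNA1A, CACNA1B and CACNA1E the P/Q-, N- and R-type channels of nerve terminals and dendrites, and CACNA1G, CACNA1H and CACNA1I the T-type channels that open at low voltage. In neurons, L-type channels couple electrical activity to gene expression, and P/Q- and N-type channels trigger transmitter release. MYT1L is a zinc-finger transcription factor of neurons whose family recognises a core of the letters AAGTT.

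Overlapping peaks of the MYT1L libraries were joined into regions, and a region was called reproducible if at least 3 of the 4 libraries had a peak in it. A MYT1L region was found at every member (10 of 10), against 84.1% of all protein-coding genes. A reproducible region without an IgG peak was found at 4 of the 10 members, CACNA1C, CACNA1S, CACNA1G and CACNA1H, against 48.0% of protein-coding genes. A region in all 4 libraries without an IgG peak was present at 2 members, CACNA1C and CACNA1H, against 25.3%. With 2 libraries sufficing, 9 of 10 members had a region, against 67.3%, and the exception was CACNA1I. These shares are over genes of all lengths, whereas the median member is 183 kb long. Shares by gene length were computed only for reproducible regions without an IgG peak and are given below. The count of 4 became 7 without MYT1L replicate 2, 8 without MYT1L replicate 3 and 6 without replicate 1 or 4, where 2 of the other 3 libraries sufficed. The share of all protein-coding genes moved as well, to 63.3%, 59.9%, 55.4% and 49.3% without replicates 2, 3, 1 and 4. When each MYT1L list was limited to as many of its strongest peaks as the shortest of the 4 has, the count was 2 and the share of all genes 33.7%.

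The sequences at issue are those of the start sites that a region covered. The promoter table of RefSeq (GRCh38.p14, 250 bases before to 50 after a start) held 8 of the 10 members, without CACNA1G and CACNA1H. Among those 8, the window of CACNA1C was the only one that a region in more than 1 library overlapped. Regions assigned to CACNA1C and to CACNA1F also covered the starts of their neighbours DCP1B, which encodes an mRNA decapping cofactor, and SYP, which encodes the synaptic vesicle protein synaptophysin. These 3 windows are shown 5′ to 3′ on the gene's strand. Capitals mark bases under a peak in every library that contributed to the region. These are 32 bases in CACNA1C (chr12:2052737-2053036, plus strand, 2 libraries), 233 in DCP1B (chr12:2004408-2004707, minus strand, 4 libraries) and 161 in SYP (chrX:49200144-49200443, minus strand, 2 libraries).
CACNA1C: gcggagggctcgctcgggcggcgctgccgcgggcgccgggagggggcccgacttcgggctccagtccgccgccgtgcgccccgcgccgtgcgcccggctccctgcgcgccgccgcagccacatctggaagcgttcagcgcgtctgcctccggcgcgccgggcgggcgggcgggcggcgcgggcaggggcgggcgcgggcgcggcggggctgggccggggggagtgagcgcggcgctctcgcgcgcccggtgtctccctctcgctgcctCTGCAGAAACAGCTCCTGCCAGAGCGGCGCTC
DCP1B: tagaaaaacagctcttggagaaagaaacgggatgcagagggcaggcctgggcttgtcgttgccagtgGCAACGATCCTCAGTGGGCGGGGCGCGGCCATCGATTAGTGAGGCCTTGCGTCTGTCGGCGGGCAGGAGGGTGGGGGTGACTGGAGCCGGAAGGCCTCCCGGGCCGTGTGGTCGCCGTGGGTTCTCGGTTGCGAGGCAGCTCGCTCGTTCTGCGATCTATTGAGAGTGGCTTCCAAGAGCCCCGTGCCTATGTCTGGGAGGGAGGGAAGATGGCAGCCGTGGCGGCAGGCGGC
SYP: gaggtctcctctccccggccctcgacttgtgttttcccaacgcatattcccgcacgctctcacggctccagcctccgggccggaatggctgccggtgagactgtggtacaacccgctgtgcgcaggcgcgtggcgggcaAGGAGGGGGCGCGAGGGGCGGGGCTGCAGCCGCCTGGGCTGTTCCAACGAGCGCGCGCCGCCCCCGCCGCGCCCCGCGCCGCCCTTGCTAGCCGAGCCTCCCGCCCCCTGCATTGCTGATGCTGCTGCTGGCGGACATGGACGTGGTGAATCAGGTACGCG

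In the CACNA1C window the common bases lie at its downstream end, whereas in DCP1B they run over most of the window and through the start. The CACNA1C window had 82.3% G and C and 54 CpG dinucleotides, that of DCP1B 64.7% and 24, and that of SYP 71.3% and 35. The medians over 15843 protein-coding promoters were 62.7% and 22. None of the 3 windows held AAGTT or its reverse complement AACTT. Of the 8 member windows, those of CACNA1I and CACNA1S held it, with 1 match each, and no region overlapped either window. The letters occurred on either strand in 29.3% of all protein-coding promoters, in 21.0% of those overlapping a reproducible region and in 34.8% of the others. These sets of promoters were not matched for G and C content, and the difference was not tested.

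The number of peaks at the 10 genes together was 22, 11, 18 and 29 in MYT1L replicates 1 to 4. IgG replicate 1 had none and IgG replicate 2 had 1. The groups did not overlap (20 ± 7.53 peaks, SD, n = 4, against 0.5 ± 0.707, SD, n = 2). As a share of each list the order was not the same: the members held 0.0788% to 0.0964% of the peaks in the MYT1L libraries and 0.100% in IgG replicate 2, where that share is 1 peak. The L-type genes had 12, 4, 10 and 16 peaks in MYT1L replicates 1 to 4, the P/Q-, N- and R-type genes 8, 3, 6 and 7, and the T-type genes 2, 4, 2 and 6. Over all protein-coding genes, 4.16% had an IgG peak in the same window, and 1 of the 10 members did.

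**Figure D1:**
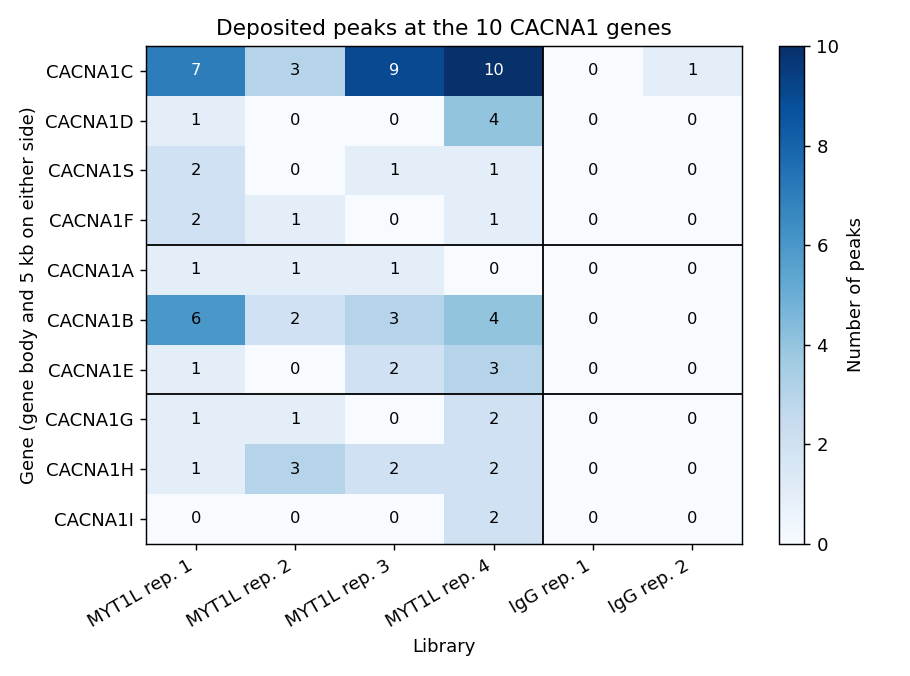
Number of deposited peaks (colour and digits) at each CACNA1 gene (rows, with lines between the L-type, the P/Q-, N- and R-type, and the T-type genes) in each library (columns). CACNA1C and CACNA1B hold the most peaks, up to 10 and 6 in a MYT1L library, and the IgG columns hold 1 peak in all.

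Depth differed between the groups. Peak pileups, the number of fragments over a summit, were recovered from the deposited fold and −log10 p for all 80 MYT1L peaks at the members. The genome-wide background pileup was 1.18, 0.421, 1.05 and 0.895 in MYT1L replicates 1 to 4, and 0.329 and 0.190 in IgG replicates 1 and 2. Reduced to the depth of IgG replicate 1, 22 of the 80 peaks had a chance over 50% of passing the lowest −log10 p of that list, and 10 had one at the depth of IgG replicate 2. Of the 22 peaks in reproducible regions, 12 and 9 were above that chance, and of the 58 others 10 and 1. The part of depth in the lower IgG counts was not tested further. Counting error is the only error these chances cover.

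The strong site of CACNA1C, the L-type channel gene of heart, brain and smooth muscle, lay on chromosome 12 from 2255805 to 2256088 (GRCh38). Fold here is the deposited enrichment of a peak over its local background, a value of the authors for each peak. It was 25.5, 24.3, 20.4 and 23.3 in MYT1L replicates 1 to 4 (23.4 ± 2.20, SD, n = 4), and the nearest IgG peak was 317 kb away. These values chose the site and are given as a description. The fragments piled up to 127, 67, 80 and 82, over local backgrounds of 4.01, 1.80, 2.98 and 2.56. In each library the local background was above the genome-wide one, by a factor of 2.83 to 4.26. Whether fragments of the site itself entered this local background was not tested, and the control library is not known. Reduced to IgG depth, these pileups would come to between 14.5 and 52.4, which describes the chosen values and is no test of the missing IgG peak.

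The site was narrow and its position was shared. The peaks were 271 to 282 bp wide, and the 4 summits fell between positions 2255946 and 2255963, a spread of 17 bp. Over the 5030 regions in all 4 libraries without an IgG peak, the median spread of summits was 268.5 bp, and 40 regions (0.795%) had one of 17 bp or less. The median width of these regions was 889.5 bp, and 37 (0.736%) were as narrow as the 284 bp of the site. Their median fold was 8.87, against 6.72 over all 5030, and the site ranked second among the 37. By mean fold the site ranked 3 of 5030. It was at rank 5 when either IgG library was left out. A narrow region leaves little room for summits to lie apart, and spread was not compared among the 37 narrow regions alone. The site was chosen on its fold, so its ranks by fold only describe the choice.

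The rank depended on setting aside regions with an IgG peak. Among all 5952 regions in 4 libraries, 34 had a higher mean fold than the CACNA1C site, and 32 of those (94.1%) overlapped an IgG peak. Of the 34 regions next below it, down to a mean fold of 18.8, 30 did. Over all such regions the share was 15.5%. The CACNA1C site thus lay in a range of fold where most regions were also found with IgG, and was itself one without. The part of background in its fold was not tested. Of the 20037 protein-coding genes, CACNA1C was the 1 gene with a region this strong in all 4 libraries and without IgG peak. The limit in that count is the fold of the site itself, on which it was chosen. So few genes could meet it, and the count only describes the choice.

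**Figure D2:**
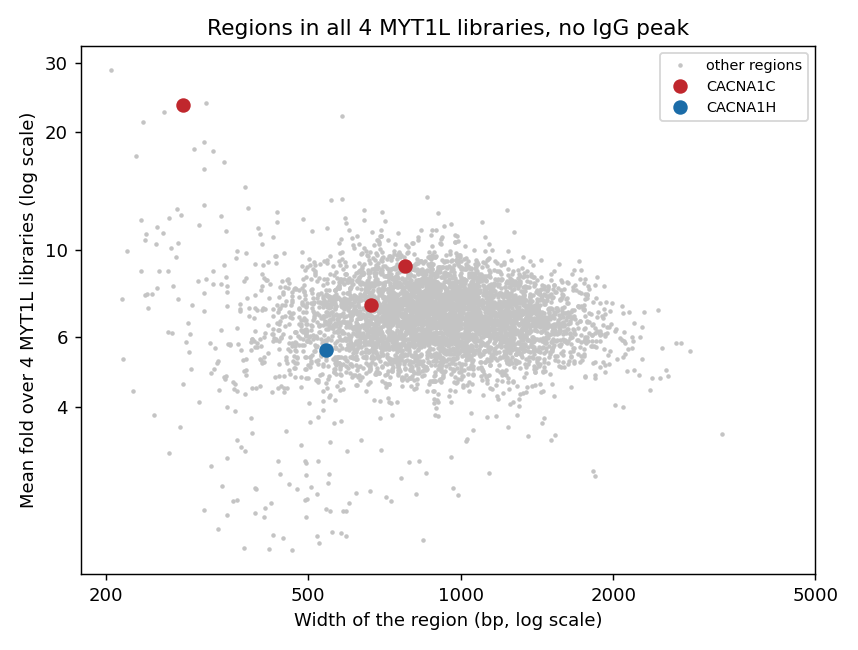
Width (bp, log axis) and mean fold over the 4 MYT1L libraries (log axis) of the 5030 regions in all 4 libraries without an IgG peak. The CACNA1C site is the red point at the upper left, at 284 bp and a fold of 23.4, and the other CACNA1C and CACNA1H regions lie within the main cloud.

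Within CACNA1C (chromosome 12, 1970780 to 2697950) the site lay 285 kb from the lower-coordinate end and 203 kb downstream of the start site in the promoter table. No other gene of the table covered it. The nearest were the noncoding genes CACNA1C-IT3, 13.7 kb away, and CACNA1C-AS4, 32.3 kb away. The nearest other region, 19.2 kb away, was inside CACNA1C-IT3, with peaks in 2 libraries and a mean fold of 4.63. The table gives no exons or introns, so neither was assigned.

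CACNA1C had 16 further regions, and its 17 made up 32.1% of the regions of the family, on 29.0% of its length. At 33.2 kb from the lower-coordinate end, a region from 2003959 to 2004736 had folds of 7.57, 7.78, 7.09 and 14.0 in replicates 1 to 4. Replicate 4 stood apart from the other 3, and the mean was 9.11 ± 3.28 (SD, n = 4). This region holds the start site of DCP1B, which overlaps the upstream part of CACNA1C on the opposite strand (the second sequence above), so it cannot be assigned to either gene alone. A region from 2520082 to 2520747 had folds of 8.17, 8.04, 6.26 and 6.51 (7.25 ± 1.0, SD, n = 4), with no other gene of the table at it.

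Fewer libraries had a peak at the start site of CACNA1C in the promoter table, which lies inside the gene body. A region from 2052761 to 2053451, which overlaps the first sequence above, had a fold of 4.41 in replicate 1 and 6.23 in replicate 4. The peak of replicate 1 reached only the last 32 bases of that sequence. A second one, from 2053909 to 2054452, had 3.88 in replicate 3 and 6.63 in replicate 4. No library other than replicate 4 had both. The IgG peak at the family, in replicate 2 from 2572612 to 2572816 (fold 6.66, pileup 9), overlapped a region of MYT1L replicate 3 with a fold of 4.61. The other regions of the gene were in 1 library each.

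**Figure D3:**
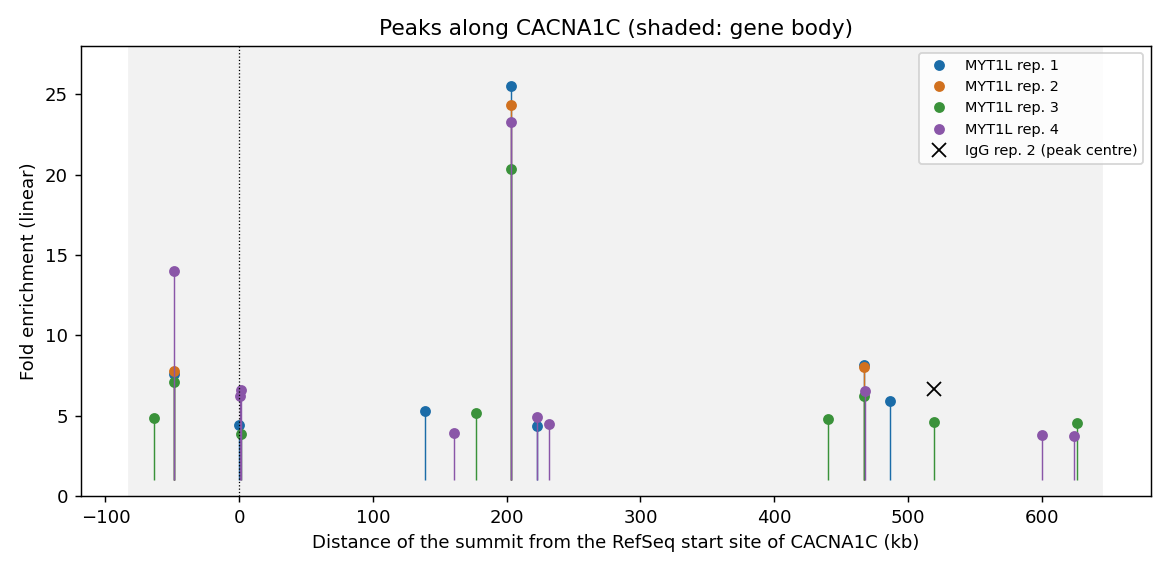
Fold enrichment (linear) of each peak along CACNA1C against the distance of its summit from the RefSeq start site (kb), coloured by MYT1L replicate, with the IgG peak as a cross at its centre. The 4 MYT1L replicates coincide at 203 kb with folds of 20.4 to 25.5, and again with lower folds at the start of DCP1B, left of 0, and once farther right.

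The remaining L-type genes had few regions. CACNA1D, whose channel opens at more negative voltages and supports pacemaking, had 4 regions and none in more than 2 libraries. The one in 2 libraries lay 0.651 kb inside the gene (chromosome 3, 53495262 to 53496103), with folds of 6.02 in replicate 1 and 5.69 in replicate 4, and replicate 4 alone had a further peak over the start (fold 5.47). CACNA1S, the channel of skeletal muscle excitation-contraction coupling, had a region in 3 libraries with folds of 4.51, 6.18 and 9.24 in replicates 1, 3 and 4 (6.65 ± 2.40, SD, n = 3). That region (chromosome 1, 201114280 to 201115021) lay 1854 bp outside the gene, on the side of its start, within the neighbouring gene ASCL5 and 337 bp from its end, and it dropped out when the gene body alone was counted. CACNA1F, the photoreceptor channel, had a region in 2 libraries (chromosome X, 49199908 to 49200338, folds of 4.65 in replicate 2 and 6.58 in replicate 4), 4725 bp outside the gene and over the start of SYP.

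Of the regions of L-type genes in 2 or more libraries, those at DCP1B, ASCL5 and SYP thus also lay at another protein-coding gene. The SYP region was also the one nearest the limit from inside, and the nearest outside it was a region in 1 library at 6.16 kb from CACNA1G, with a fold of 4.29. Neither was in 3 libraries, and with a limit of 10 kb the count of members was again 4.

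The 3 genes of the P/Q-, N- and R-type channels had no reproducible region. CACNA1B, the N-type channel gene, had 11 regions over 246.8 kb, or 4.28 per 100 kb of gene and flanks. Of these, 4 were in 2 libraries, each in a different place along the gene, with mean folds of 3.59 to 4.69. Replicate 1 had 6 peaks there, replicate 2 had 2, replicate 3 had 3 and replicate 4 had 4. The peaks of CACNA1B, with folds from 3.29 to 6.23, were thus spread along the gene, and no 3 libraries shared one. CACNA1A, the P/Q-type gene of presynaptic terminals and Purkinje cells, had 2 regions over 300 kb (0.645 per 100 kb). One of them lay 0.165 kb inside the start (chromosome 19, 13505923 to 13506314) with folds of 5.38 in replicate 2 and 4.51 in replicate 3 and summits 18 bp apart. CACNA1E, the R-type gene, had 5 regions over 490 kb (0.999 per 100 kb). The only one in 2 libraries (folds of 5.42 and 5.28 in replicates 1 and 4) lay inside the gene, 142 kb from its lower-coordinate end. That place is 24.0 kb upstream of the start site in the promoter table, which itself lies inside the gene body.

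Of the T-type genes, CACNA1H and CACNA1G had a reproducible region. CACNA1H had 1 in all 4 libraries (chromosome 16, 1185586 to 1186128), 32.5 kb from the lower-coordinate end, with folds of 4.87, 8.09, 5.17 and 4.15 in replicates 1 to 4 (5.57 ± 1.74, SD, n = 4). The highest fold was in replicate 2, the shallowest MYT1L library, while pileups were alike at 31, 27, 30 and 26. An annotated pseudogene overlaps CACNA1H at this place. The local background there was 4.71 to 6.16 times the genome-wide one. CACNA1G had a region in 3 libraries at its lower-coordinate end (chromosome 17, 50560448 to 50561253), with folds of 3.83, 4.98 and 4.89 in replicates 1, 2 and 4 (4.57 ± 0.639, SD, n = 3). It also lay inside the antisense gene CACNA1G-AS1 and 4596 bp from the end of SPATA20. CACNA1I had 2 regions, both in replicate 4 alone, with folds of 3.70 and 4.64.

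**Figure D4:**
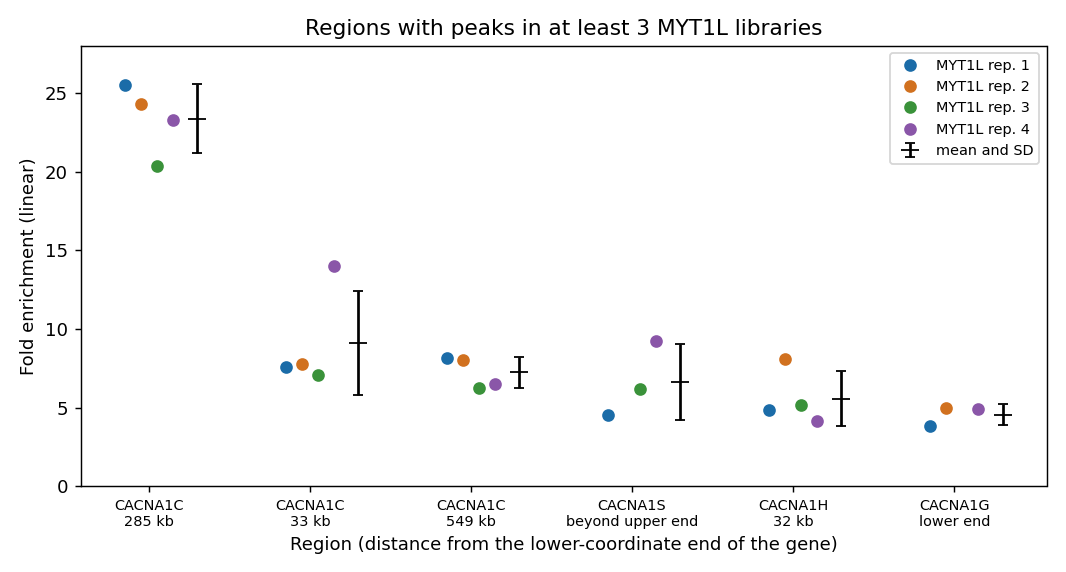
Fold enrichment (linear) in each MYT1L replicate (points) and mean with SD (black) for the 6 member regions with a peak in at least 3 libraries, named by gene and by distance from its lower-coordinate end. The 4 points of the CACNA1C site at 285 kb lie above all others, and the next highest is 14.0 in replicate 4 at 33 kb, over the start of DCP1B.

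The 6 reproducible regions made up 11.3% of the 53 at the family, against 25.1% of all 49028 regions, and 36 (67.9%) were in 1 library, against 58.1%. Single-library regions came from replicate 4 in 16 cases, replicate 3 in 9, replicate 1 in 8 and replicate 2 in 3, with folds from 3.29 to 6.23 (median 4.54). Regions in 2 libraries had mean folds of 3.59 to 5.86 (median 4.95).

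Gene length was set beside these counts, since a longer window can hold more regions. Over the members, 2.09 regions fell on each 100 kb, against 2.54 over all protein-coding genes and 1.09 over those longer than 250 kb. CACNA1A, CACNA1C, CACNA1D and CACNA1E are over 250 kb long, and 1 of these 4 had a reproducible region without IgG peak, against 71.2% of the 773 protein-coding genes from 300 kb upward. Of CACNA1B and CACNA1I neither had one, against 68.0% of 1744 genes from 119 to 250 kb. Of CACNA1F, CACNA1G, CACNA1H and CACNA1S 3 did, against 57.5% of 5834 genes from 28.3 to 100 kb. The median number of regions in those 3 classes of genes was 5, 3 and 2, and that of the members 4.5, 6.5 and 2.5.

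**Figure D5:**
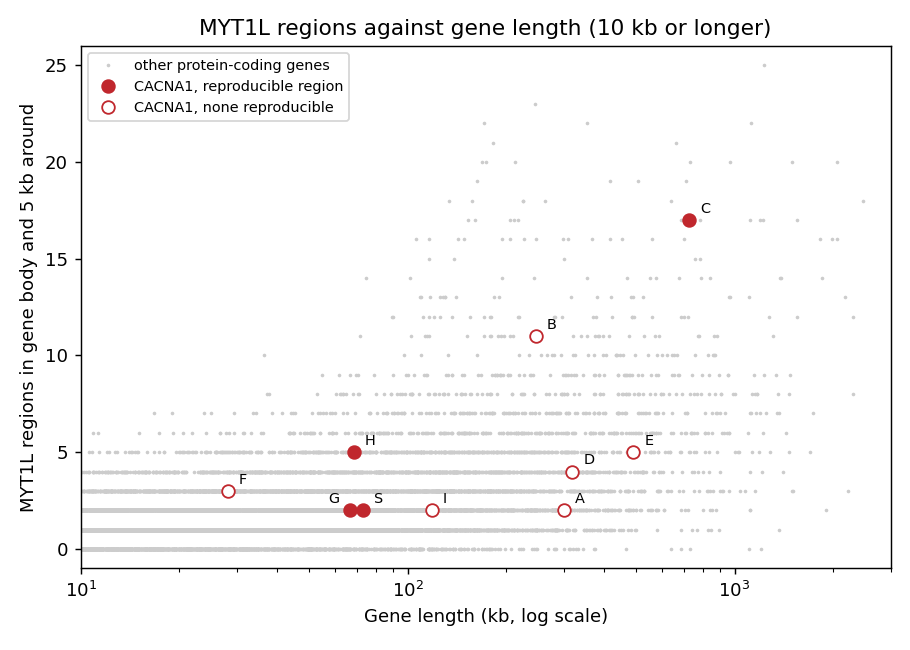
Number of MYT1L regions in the gene body and 5 kb around it against gene length (kb, log axis) for 14334 protein-coding genes of 10 kb or longer (grey; 9 with over 25 regions are not shown) and the CACNA1 genes (red, labelled by the last letter, filled with a reproducible region). CACNA1C with 17 regions and CACNA1B with 11 stand high for the family, and CACNA1A has 2 at 300 kb.

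Start sites were compared on the same footing, with 1 start per gene from the promoter table. For CACNA1C and CACNA1E that start lay inside the gene body (2052987 in a gene from 1970780, and 181483517 in a gene from 181317699). Other starts of these genes were not examined. Within 1 kb of the start, a MYT1L summit was found in 2 libraries at CACNA1A, CACNA1C and CACNA1D, in 1 at CACNA1B and CACNA1E, and in none at CACNA1F, CACNA1I and CACNA1S. At CACNA1B the region of replicates 1 and 4 had its mean summit 999.5 bp from the start, and the replicate 1 summit fell just outside the limit. No start of the 8 had a summit within 1 kb in 3 or 4 libraries, which 42.0% of 15843 protein-coding starts had. In any library, 5 of the 8 had one, against 69.0%. CACNA1G and CACNA1H, which the promoter table lacks, are outside these counts. CACNA1G has a region in 3 libraries over its lower-coordinate end. CACNA1H has a region in replicate 4 alone (fold 5.49), 101 bp outside its lower-coordinate end. The promoter windows of the starts with summits in 2 libraries had 60.7% (CACNA1A), 82.3% (CACNA1C) and 83.0% (CACNA1D) G and C. Those with summits in 1 library had 85.3% (CACNA1B) and 48.0% (CACNA1E), and those with none 46.0% (CACNA1F), 62.7% (CACNA1I) and 65.7% (CACNA1S).

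The auxiliary beta and alpha2delta subunits modify the gating and transport of the pore. The gamma genes were put on the auxiliary list by family name, whether or not their proteins act on calcium channels. Of the 16 genes of the beta, alpha2delta and gamma families, 8 (50%) had a reproducible region without IgG peak, against 48.0% of all protein-coding genes. In the gene body alone 5 had one, against 43.2%. CACNB2 and CACNA2D1 (12.5% of the list, against 25.3%) had such a region in all 4 libraries, each over the gene's start site. The fold was 6.52 ± 1.87 (SD, n = 4) at CACNB2, a beta subunit gene (chromosome 10, 18140186 to 18141164). It was 7.15 ± 1.93 (SD, n = 4) at CACNA2D1, the gene of the alpha2delta subunit bound by gabapentin (chromosome 7, 82443136 to 82444676). Of 18 genes of channel partners (calmodulins, STAC proteins, presynaptic scaffold and fusion proteins, ryanodine receptors and junctophilins), 11 (61.1%) had a reproducible region, against the same 48.0%. That share is over genes of all lengths. The median length was 87.4 kb for the auxiliary genes and 92.5 kb for the partners. Among protein-coding genes from 28.3 to 100 kb the share was 57.5%, and 68.0% and 71.2% in the longer classes. For all 4 libraries no share by length was computed. The 7 with one in all 4 libraries (38.9%, against 25.3% of all genes) were CALM3, STAC, RIMS1, RIMS2, RIMBP2, RYR2 and RYR3, with mean folds of 4.80 to 7.20. At STAC, RIMS1, RYR2 and RYR3 the strongest such region held the start site. At RIMBP2, the scaffold that links calcium channels to release sites, the stronger of 2 such regions lay 69.1 kb from it.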

How the data were processed

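The members and gene lists were chosen with earlier results of these data known. The authors deposited 1 peak list per library, made with MACS2 on hg38, per the submitters' processing notes. The aligner, thresholds and control library are not given in the sources used here. The deposited values per peak are a fold enrichment (a ratio), −log10 p, −log10 q and a score, which was not used. They were used to describe, rank or filter peaks. Peaks on chromosomes 1 to 22, X and Y were read (Python 3.11.15, pandas 2.3.3). The lists held 12310 to 30086 such peaks with MYT1L and 976 and 998 with IgG. MYT1L peaks sharing 1 bp were joined, and the highest peak of a library stood for it in a region. Joining was checked against bedtools 2.31.1, with the same regions. A whole-number pileup k and background b were solved from fold = (k + 1) / (b + 1) and the Poisson probability of more than k (SciPy 1.17.1), within 0.0002 on the −log10 p scale. They were thinned binomially to IgG background, which assumes those formulas and that background pileup tracks depth. Read totals are unknown. The solution was tested on simulated data. Named genes were all members, neighbours within 5 kb of a region in 3 or more libraries, and listed genes with a region in all 4. SYP, CACNA1C-IT3, CACNA1C-AS4, the pseudogene at CACNA1H and the single regions in 1 or 2 libraries were picked out after their values were seen. Alternatives are given in the closing section.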

Additional observations from a re-analysis of the deposited data

Results flagged for a closer look

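Among the values per MYT1L library, 3 had a library apart from the other 3 by a criterion that chance alone meets in about 1 in 20 groups. The fold of the region over the start of DCP1B inside CACNA1C (from 2003959) was 14.0 in replicate 4 and 7.09 to 7.78 in the others. The number of peaks at CACNA1A was 0 in replicate 4 and 1 in each of the others. The number of peaks at CACNA1I was 2 in replicate 4 and 0 in the others. For the last 2, tied counts this small meet the criterion with a single peak more or less.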

How the results depend on the processing

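All alternatives were planned, 82 values over 7 results, of which 63 stayed within 1.5 times, or 1 SD, of the reported value. No paired analysis was possible because no result comes from a test; the labels share sample numbers 1 and 2 between groups. The mean fold of the CACNA1C site, 23.4, on which it was chosen, stayed between 22.7 and 24.4 in its 5 alternatives. Of these, the mean over the peaks of a library could not change it, since each library had 1 peak there. The number of regions at the members, 53, was 24 for peaks at a −log10 q from 5 up and 23 with MYT1L lists limited to the length of the shortest, and 37 to 50 without a MYT1L library. Peaks per MYT1L library fell from 20 to 10 and 9 under those 2 settings, which leave fewer peaks, and were 17 to 23 without a library. Members with a reproducible region, 4, were 3 in the gene body alone and 3 at −log10 q from 5 up. Members numbered 2 with limited lists, 2 with all 4 libraries required and 9 with 2 libraries. They were 4 to 8 across the fits without 1 library. The share of all protein-coding genes, 48.0%, was 43.2% in the gene body alone and 30.6% at −log10 q from 5 up. It was 33.7% with limited lists, 25.3% with all 4 libraries required and 65.3% with 2 libraries (48.7% to 63.3% without 1 library). Auxiliary genes with one, 8, were 5 in the gene body alone, 2 at −log10 q from 5 up, 3 with limited lists and 2 with all 4 libraries (8 to 10 without 1 library). The rank of the site, 3, was 35 with IgG regions kept, since 32 stronger regions had IgG peaks, 6 by −log10 q, and 2 to 5 without 1 library. Where no cause is named, the cause was not tested. With pileups down to 7, weak peaks at the members could be missed in the shallower libraries.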
